A study of Caenorhabditis elegans with 12 samples.

Results

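The 107 genes described here are those whose small RNAs were far scarcer in worms with altered WAGO Argonautes than in worms of the CSR-1 strain, before any immunoprecipitation (IP). They were chosen from the input libraries of the 2 strains. A gene was kept if its mean in the WAGO-1 P3G inputs was at most 0.125 of its mean in the CSR-1 inputs, with 0.5 added to each mean, and if its CSR-1 input mean reached 50 CPM, which is counts per 1000000 counted reads. A numbered block of 88 identifiers was set aside beforehand, and 0 of its members met both limits. The 107 made up 0.531% of the 20134 WormBase gene identifiers in the table and 3.52% of the 3042 that reached 50 CPM in the CSR-1 inputs. The input values chose these genes, so they are given as a description, with no test. The 6 IP libraries played no part in the choice, and the comparison between the IPs is the one that was tested. The fit behind that test used all 12 libraries, so the inputs entered its removal of low counts and its estimate of spread. The test is thus not fully independent of the libraries that chose the genes.

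The worms were whole, staged Caenorhabditis elegans L4 larvae raised at 15 °C, and their small RNAs were read in 12 libraries, 3 per group and lettered A, B and C. WAGO-1 P3G IP and WAGO-1 P3G input came from animals in which WAGO-1::FLAG carries the change P3G, while WAGO-3 carries P2G together with A3E. CSR-1 IP and CSR-1 input came from animals with 1xFLAG::CSR-1, and the labels name no WAGO change in them. FLAG was the target of the antibody in both IPs. The strains thus differed in bait, in tag and in genotype at once, and no strain with unaltered WAGO proteins and a tagged WAGO-1 was among these libraries. Input RNA was passed through a small RNA enrichment kit, starting from 500 ng of total RNA, and IP RNA was not. The series title puts the subject as the processing of Argonaute proteins by a protease and its bearing on the small RNAs they carry.

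Argonautes are proteins that hold a short RNA and use it to find matching transcripts. In C. elegans the WAGO family carries secondary small RNAs, which RNA-dependent RNA polymerases copy from target transcripts, and is known for silencing transposons, pseudogenes and some coding genes. CSR-1 carries small RNAs against genes that are expressed in the germline and is known for sparing or tuning them rather than silencing them. A gene's count here is therefore the abundance of small RNAs that map to the gene, not of its messenger RNA. Whether reads were counted by strand is not given in the sources used here, so sense and antisense reads of a gene cannot be told apart. The table names genes by identifier alone, and 0 of the 20134 identifiers could be paired with a symbol, so the genes have no names or roles in what follows and no sequence is shown.

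Libraries held 10952884 to 13473204 reads in the WAGO-1 P3G IPs, 3321443 to 6131378 for the CSR-1 IPs, 1235462 to 1373120 in the WAGO-1 P3G inputs and 878241 to 1311844 in the CSR-1 inputs. Reads counted to a gene or interval numbered 7403373 to 9187525, 2405005 to 4908321, 334088 to 355028 and 373033 to 533232 in the same 4 groups. Replicate A of the CSR-1 IP was unlike the other two: the chi-square per degree of freedom against replicates B and C was 8.97 and 7.58, and between B and C it was 1.60. In the CSR-1 inputs replicate A also differed more from B and C, at 2.56 and 1.91, than B and C did from each other. No pair of replicates differed by less than sampling noise. The labelled tissue, whole worms, could not be checked against marker genes, because no identifier had a symbol.

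In the inputs, reads on the 107 genes made up 0.290% ± 0.00385 of all counts in WAGO-1 P3G animals and 3.90% ± 0.0877 in the CSR-1 strain (SD, n = 3 each), a 13.5-fold lower share in the WAGO-1 P3G strain. Each WAGO-1 P3G input held 972 to 1029 reads on the genes, and each CSR-1 input held 14437 to 20450. As a share of all reads, those on no feature included, the gap was 21.7 times. The gene-wise level in the WAGO-1 P3G inputs ran from 0 to 187.6 CPM with a median of 14.6, and in the CSR-1 inputs from 51.8 to 3212 CPM with a median of 247.6. For all 107, every WAGO-1 P3G input library lay below every CSR-1 input library, as the choice of genes nearly ensures. Over the 10822 features tested 21.7% did so and 27.3% lay wholly above. In whole-animal RNA, fewer cells of a type and less small RNA per cell cannot be told apart.

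**Figure D1:**
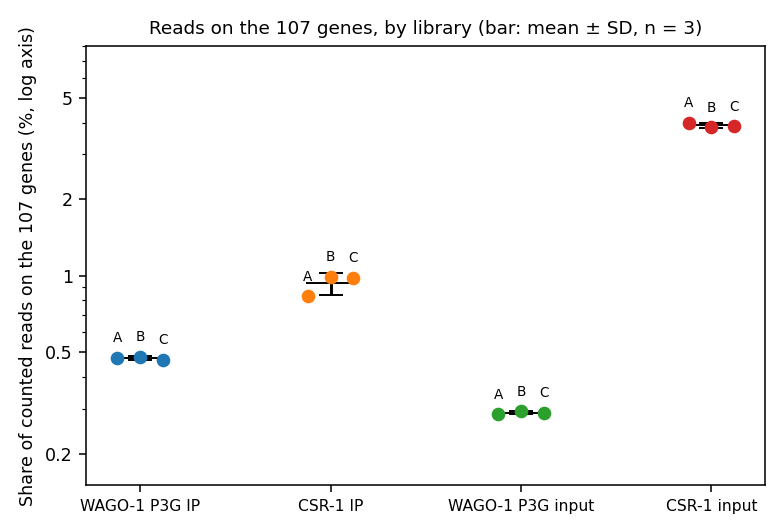
Share of counted reads (%, log axis) that fell on the 107 genes in each of the 12 libraries, with the mean and SD of each group of 3. The WAGO-1 P3G IPs sit at 0.468 to 0.481%, the CSR-1 IPs at 0.830 to 0.989%, the WAGO-1 P3G inputs at 0.286 to 0.294% and the CSR-1 inputs at 3.84 to 4.00%.

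The depth of the WAGO-1 P3G inputs limits how exactly a single gene's loss can be stated. Over the 3 libraries a gene of the 107 had a median of 15 counts there, against 324 in the CSR-1 inputs. The median coefficient of variation between replicates was 34.3% in the WAGO-1 P3G inputs and 11.3% in the CSR-1 inputs. In the WAGO-1 P3G inputs 8 genes had 3 or fewer counts in all, and 2 of these had 0. Against a floor of 3 counts over the group, those 2 were at least 22.3-fold and at least 18.5-fold lower than in the CSR-1 inputs. Such floors cover counting error only.

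The largest loss by the ratio was at WBGene00015096. It had 5.88, 2.99 and 2.82 CPM in WAGO-1 P3G inputs A, B and C, against 983.1, 920.8 and 1027 CPM in the CSR-1 inputs. The gene with the most small RNA in the CSR-1 inputs, WBGene00045272, had 79.4, 92.8 and 101.4 CPM in the WAGO-1 P3G inputs, against 3577, 3128 and 2930 CPM in the CSR-1 inputs. In neither gene did the groups overlap, and the replicates of each strain lay far closer to each other than to the other strain. The 10 genes most abundant in the CSR-1 inputs held 27.5% of the reads on the 107 genes in the WAGO-1 P3G inputs and 32.4% in the CSR-1 inputs, and the 10 most abundant in the WAGO-1 P3G inputs themselves held 33.4% there. At the ratio limit, the last 3 genes inside had ratios of 0.1236, 0.1247 and 0.1248, and the first 3 outside had 0.1253, 0.1255 and 0.1257. At the level limit, the last 3 inside had 51.8, 54.01 and 56.6 CPM in the CSR-1 inputs, and the first 3 outside had 49.4, 46.4 and 45.2 CPM.

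**Figure D2:**
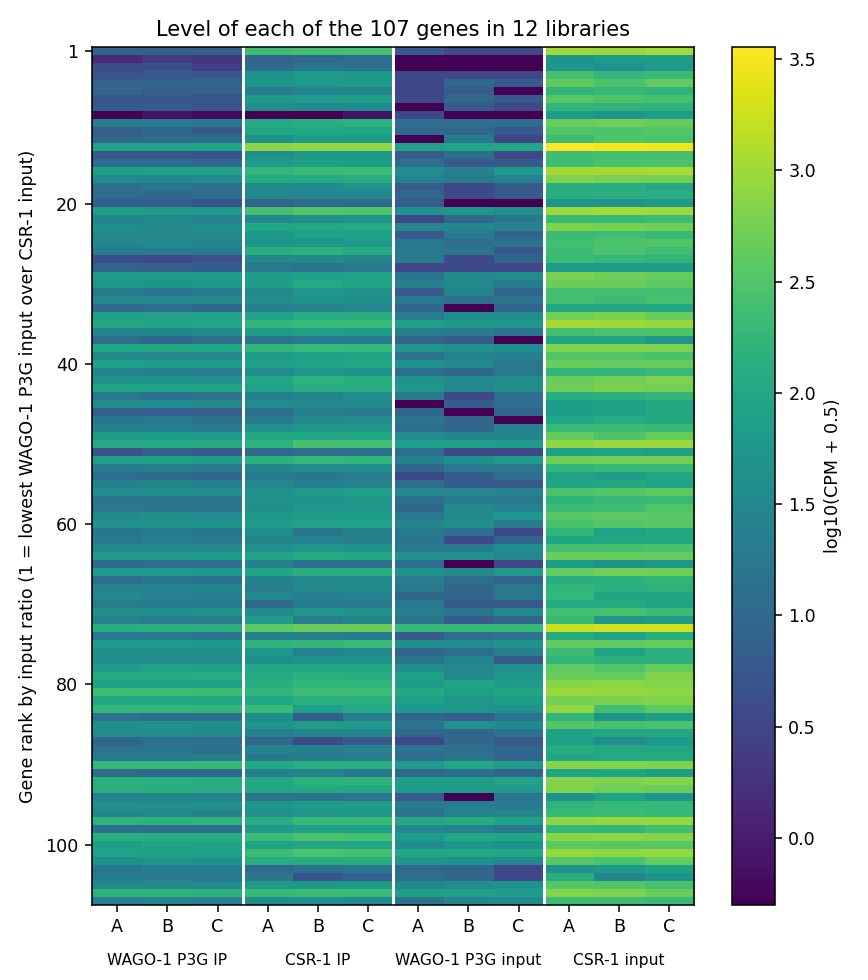
Level of each of the 107 genes as log10(CPM + 0.5) in the 12 libraries, with genes ordered from the lowest input ratio at the top. The WAGO-1 P3G inputs are the darkest block, with a median of 14.6 CPM, and the CSR-1 inputs the brightest, with a median of 247.6 CPM. The IP blocks lie between them.

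Between the IPs the gap was much smaller. Most of the 107 genes were lower in the WAGO-1 P3G IPs than in the CSR-1 IPs: 78 were called lower, 8 higher and 21 neither, at a threshold of 0.05 on the adjusted p (Benjamini-Hochberg) of edgeR's quasi-likelihood test on 12 libraries. The same test called 44.6% of all 10822 features lower and 42.3% higher. The median fitted log2 ratio of the 107 was -0.77, against -0.09 for all features tested. Summed over the 107, they took 0.475% ± 0.00673 of the counts of a WAGO-1 P3G IP and 0.933% ± 0.0894 of those of a CSR-1 IP (SD, n = 3 each), a ratio of 0.510. By library it was 0.477%, 0.481% and 0.468% in WAGO-1 P3G IPs A, B and C, and 0.830%, 0.989% and 0.980% in the CSR-1 IPs, with CSR-1 IP A the lowest of its group and still above every WAGO-1 P3G IP. In 78 of the genes the 3 WAGO-1 P3G IP libraries all lay below the 3 CSR-1 IP libraries in CPM, and in 7 all above them, and over all features 45.4% and 41.7% did.

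All 107 genes passed the filter on low counts, but the CSR-1 inputs by which they were chosen suffice for that, so passing says nothing of their level in the IPs. The share called lower, 72.9%, is above that of all features and nearer to that of the other genes that reached 50 CPM in the CSR-1 inputs. Of the 2918 genes that reached 50 CPM there and are neither among the 107 nor in the block set aside, 59.05% were lower by the same call and 34.6% higher, with a median of -1.24 on the log2 scale. The 2918 share only that limit with the 107, so the pooled share alone does not say whether the 107 stand apart. Most of the 2918 are the 2178 genes with an input ratio above 0.5 and up to 2. Their CSR-1 IP over input ratio of mean CPM, with 0.5 added, had a median of 1.89, against 0.228 for the 107. Within the 2918 the share of lower calls varied with the input ratio. It was 14.5% in the 159 genes with a ratio above 0.125 and up to 0.25. It was 28.9% in the 298 above 0.25 and up to 0.5. It was 70.5% in the 2178 above 0.5 and up to 2, and 27.6% in the 283 above 2. The difference of the 107 from these sets was not tested.

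The size of this difference moved with the scaling and with the features tested. With median-of-ratios factors the median of all features was 0.20 and that of the 107 was -0.48, with 64 lower and 16 higher. With library totals alone the medians were -0.18 and -0.86, with 83 lower and 7 higher. On the 10822 features the median of the 107 minus that of all features was -0.68, and between -0.72 and -0.62 over 16 settings, but it was between -0.99 and -0.19 when a library was left out and features were filtered again, -1.31 with the 6 IP libraries alone and -1.76 with no filter on low counts. Leaving out WAGO-1 P3G IP A or C in that way took the lower calls to 50 and 47, and on the features of the full set either gave 58. Without CSR-1 IP A there were 62 lower and 20 higher after filtering again, and 77 and 9 on the features of the full set.

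**Figure D3:**
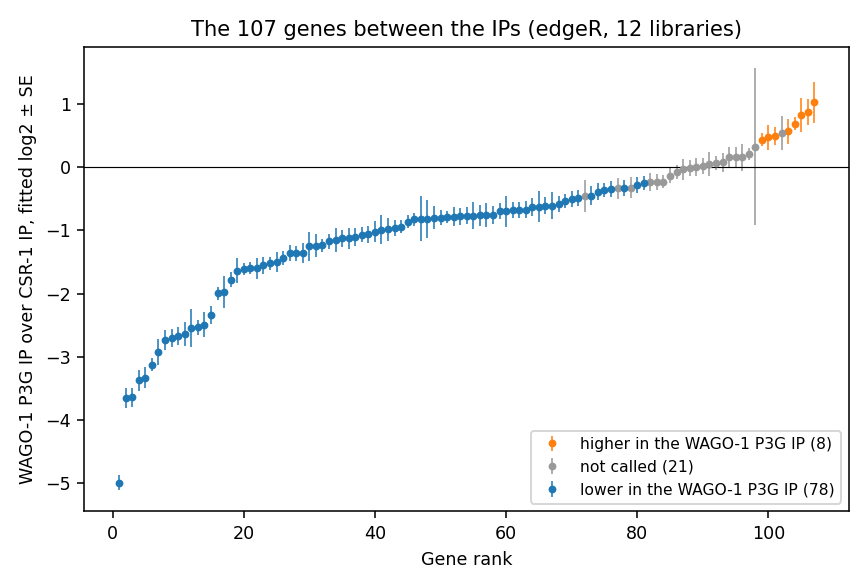
Fitted log2 ratio of the WAGO-1 P3G IPs over the CSR-1 IPs with its SE for each of the 107 genes, ranked from lowest to highest. The 78 genes called lower run from -4.99 to -0.26, the 21 not called from -0.46 to 0.54 and the 8 called higher from 0.44 to 1.02.

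The 78 genes called lower had fitted log2 ratios of -4.99 to -0.26, and 40 of them were at least 2-fold and 15 at least 4-fold lower. WBGene00015096 was the lowest, with 7.80, 6.89 and 7.07 CPM in WAGO-1 P3G IPs A, B and C, against 230.8, 257.0 and 258.3 CPM in the CSR-1 IPs. Its fitted log2 ratio was -4.99 ± 0.12 (SE, n = 3 and 3, edgeR adjusted p = 4.62e-22). WBGene00010610 followed, with 4.92, 4.73 and 4.79 CPM in the WAGO-1 P3G IPs, against 58.1, 67.4 and 69.7 CPM in the CSR-1 IPs (log2 -3.65 ± 0.16, edgeR adjusted p = 2.77e-17). The 2 groups were far apart in both genes, and the WAGO-1 P3G IPs varied by under 1 CPM between replicates.

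The 8 genes called higher lay between log2 0.44 and 1.02, and 1 of them was at least 2-fold higher. WBGene00013163 had 184.1, 186.8 and 191.6 CPM in the WAGO-1 P3G IPs, against 108.8, 126.8 and 137.9 CPM in the CSR-1 IPs (log2 0.69 ± 0.11, edgeR adjusted p = 2.00e-06). WBGene00010735 had 35.9, 38.4 and 32.9 CPM in the WAGO-1 P3G IPs, against 21.6, 31.2 and 30.0 CPM in the CSR-1 IPs (log2 0.49 ± 0.15, edgeR adjusted p = 0.00321). The first pair of groups was well separated. The second was separated by a narrow margin, and its call ended when the 6 IP libraries were fitted alone (log2 0.26, adjusted p = 0.101 from edgeR). The number of higher calls ran from 4, with the IPs fitted alone, to 21, with a library left out and features filtered again. The 21 genes not called had log2 ratios of -0.46 to 0.54 with a median SE of 0.15.

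The genes with the deepest input loss were also the lowest in the WAGO-1 P3G IPs relative to the CSR-1 IPs. Of the 34 genes at least 16-fold lower in the WAGO-1 P3G inputs, 32 were called lower between the IPs, 0 higher and 2 neither, at a median log2 of -1.71. Of the 73 genes with a smaller loss, 46 were called lower, 8 higher and 19 neither, at a median of -0.61. Median levels in the CSR-1 IPs were close in these 2 subsets, at 57.0 and 51.6 CPM, as were those in the CSR-1 inputs, at 248.1 and 243.3 CPM. Median levels in the WAGO-1 P3G IPs were 10.7 CPM in the first subset and 35.3 CPM in the second. The subsets were cut by the inputs, so the differences in the inputs are not independent of the choice. The IP libraries were not used in the cut. In the CSR-1 strain, however, IP and input of letter A deviated together (correlation 0.293). The differences in the IPs are therefore not fully independent of the choice either. Across the 107 genes the log2 ratio of the inputs and that of the IPs had a Pearson r of 0.72 and a Spearman rho of 0.60. The inputs and IPs share no library, but the range of the input ratio is cut off by the choice of genes, and genes are not independent replicates.

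**Figure D4:**
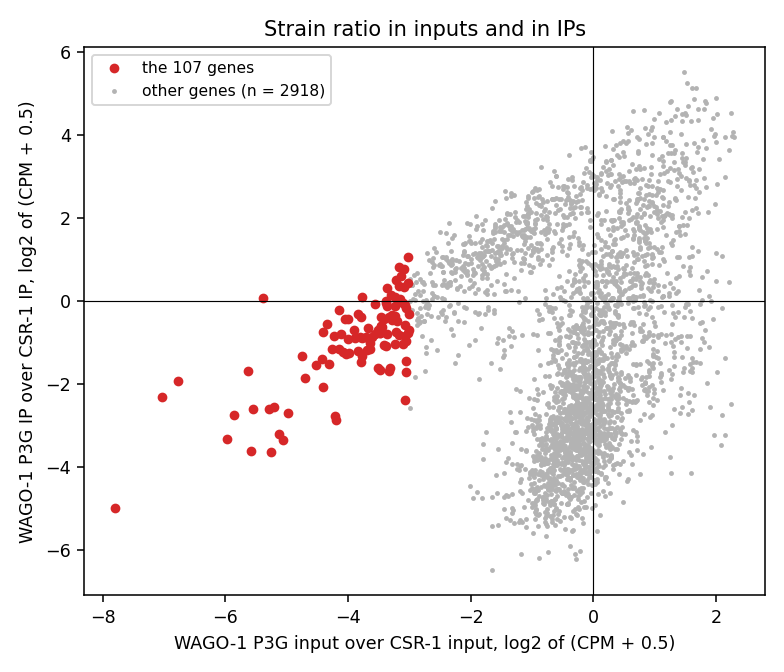
Ratio between the strains in the inputs (horizontal axis) and in the IPs (vertical axis), both as log2 of (CPM + 0.5), for every gene of at least 50 CPM in the CSR-1 inputs. The 107 genes lie at the left, mostly below 0 on the vertical axis, at the lower end of a band of genes that rises to the right, and a second, denser group of the 2918 other genes lies lower near 0 on the horizontal axis.

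Genes with a smaller input loss stood on the other side of 0 in the IPs. Of the 159 genes with an input ratio above 0.125 and up to 0.25, 94 were called higher in the WAGO-1 P3G IPs, 23 lower and 42 neither, at a median log2 of 0.50. Of the 298 with a ratio above 0.25 and up to 0.5, 196 were higher and 86 lower, at a median of 1.11. The 2178 genes with a ratio above 0.5 and up to 2 had a median of -2.07, with 1536 lower and 536 higher. The 283 genes with a ratio above 2 had a median of 1.81, with 184 higher and 78 lower. The medians thus did not rise steadily with the input ratio, and their order is a description. No test of the difference between these sets of genes was made, since the sets are cut by the inputs and their genes are not replicates. Median-of-ratios factors were added for these sets after the data were seen. With them the 107 had a median of -0.48. The sets of 159, 298, 2178 and 283 genes had 0.80, 1.41, -1.78 and 2.11, in the same order of size.

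Set against its own input, the CSR-1 IP held less of every one of the 107 genes. Together the genes' share of counts in a CSR-1 IP was 0.239 of that in a CSR-1 input, and as a share of all reads 0.418. The ratio of mean CPM, with 0.5 added, had a median of 0.228 and quartiles of 0.196 and 0.266, a narrow band for genes that span 51.8 to 3212 CPM in the input. The median fitted log2 ratio, which also scales for composition, was -1.73. In CPM 106 genes had all CSR-1 IP libraries below all CSR-1 input libraries, beside 37.6% of all features, and 0 the reverse, beside 32.1%. The 2918 other genes of at least 50 CPM had a median CPM ratio of 1.44 with quartiles of 0.374 and 2.39, and the 159 genes just above the ratio limit had 0.233 with quartiles of 0.196 and 0.274. Over the 107 genes, the log2 level in the CSR-1 IP followed that in the CSR-1 input with a Pearson r of 0.93 and a Spearman rho of 0.96 (n = 107, both of 1 strain). The CSR-1 inputs were part of the choice of genes, which favours genes that are high there, so nothing is read from these counts.

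A single gene departed far from that band. WBGene00008227, chosen after its values were seen, had 0, 0 and 0.292 CPM in CSR-1 IPs A, B and C, against 66.7, 48.8 and 69.7 CPM in the CSR-1 inputs. That is 1 count in the CSR-1 IPs and 79 in the inputs, a ratio per counted read of 647 (95% counting interval 113 to 25888) of input over IP. In the WAGO-1 P3G strain it had 0, 0.270 and 0.109 CPM in the IPs, against 2.94, 0 and 0 CPM in the inputs, which is 3 counts and 1 count and a ratio of 0.124 (interval 0.00995 to 6.50). It was thus near 0 in every library other than the CSR-1 inputs, and its change with the WAGO-1 P3G IP is not resolved. At the other end, the gene with the highest CSR-1 IP level relative to input kept 53.9%, and the next kept 42.3%.

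The WAGO-1 P3G IP held somewhat more of these genes than its own input. Together their share of counts in a WAGO-1 P3G IP was 1.64 times that in its input, and as a share of all reads 4.17 times. Mean CPM was higher in the IP for 92 genes and lower for 15. The ratio of mean CPM with 0.5 added had a median of 1.66 and quartiles of 1.26 and 2.17. The median fitted log2 ratio was 1.35. The 159 genes just above the ratio limit had a median CPM ratio of 1.77, with 144 above 1, so the values of the 107 are not particular to them. In CPM the IP libraries lay above all input libraries for 66 genes and below all of them for 3, beside 25.6% and 46.3% of all features. WBGene00013163, with 184.1, 186.8 and 191.6 CPM in the IPs, had 58.8, 101.8 and 64.8 CPM in the inputs, and the groups were well apart. WBGene00045272, with 85.4, 84.0 and 94.6 CPM in the IPs, had 79.4, 92.8 and 101.4 CPM in the inputs, and these groups overlapped. The WAGO-1 P3G inputs were used to choose the genes for being low there, which by itself raises this ratio, so these counts too are a description. With every IP library set against every input library, 65 of the 107 had the WAGO-1 P3G IPs above their inputs and the CSR-1 IPs below theirs, beside 17.5% of all features, and 96 did with shares of all reads, beside 20.2%. With IP and input matched by letter 73 did, beside 20.3% of all features, and 102 with shares of all reads, beside 24.4%. The enrichment kit was used on inputs alone, and its part in either IP over input ratio was not tested.

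**Figure D5:**
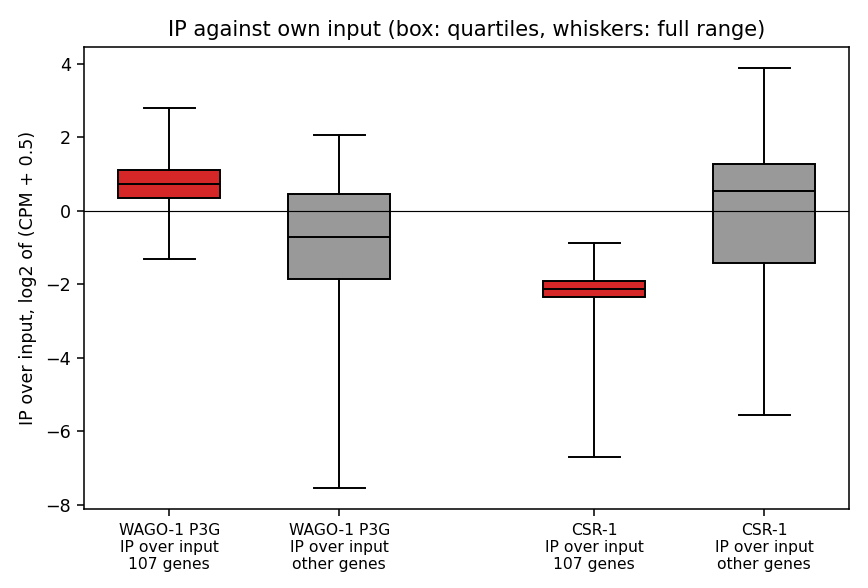
IP over own input as log2 of (CPM + 0.5) for the 107 genes and for the 2918 other genes of at least 50 CPM in the CSR-1 inputs, in each strain. Boxes give the median and quartiles and whiskers the full range. The medians as plain ratios are 1.66 for the 107 and 0.603 for the others in the WAGO-1 P3G strain, and 0.228 and 1.44 in the CSR-1 strain. The others include the 159 genes just above the ratio limit, whose medians are 1.77 and 0.233.

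The order of the 4 group means was the same in most genes. In 79 of the 107 the CSR-1 input stood highest, then the CSR-1 IP, then the WAGO-1 P3G IP, with the WAGO-1 P3G input lowest. In 14 genes the last pair was exchanged, in 13 the WAGO-1 P3G IP stood above the CSR-1 IP, and the remaining gene was WBGene00008227. The choice of genes puts the CSR-1 input above the WAGO-1 P3G input in all 107. It thus favours both the top place of the CSR-1 input and the last place of the WAGO-1 P3G input. The WAGO-1 P3G IP and the CSR-1 IP were not called different in 21 genes, so their order there is not resolved.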

How the data were processed

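The deposited table holds raw read counts, with no normalization by the authors, for 20134 WormBase identifiers, 55259 intervals and 5 summary entries. The submitters' processing notes name HTSeq 0.11.2, cutadapt 2.3, Bowtie 1.2.3, SAMtools 1.9 and build ce11, with no role. Handling of reads with several alignments is not given in the sources used here, so genes with near-identical copies are uncertain. Groups were set from sample titles; an opening sentence of some descriptions contradicts the title.

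CPM used the sum over identifiers and intervals. The test was the quasi-likelihood F test of edgeR 4.0.16 (R 4.3.3) on 12 libraries, with 4 group means, 8 residual degrees of freedom, TMM scaling and low counts removed by filterByExpr. Adjustment was over the 10822 features left. The SE is the size of the log2 ratio over the square root of F. The script was tested on simulated counts in which most features did not differ between the IPs. Most features were called different in the data, so that simulation does not bear on the scaling. Labels do not say that replicates were separate cultures, so p-values reflect only the spread among these libraries.

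Members and lists were chosen with earlier results of these data known. Gene and marker lists matched 0 identifiers and gave no result. The rule for named genes took members highest in each group, lowest in input ratio and at both ends between the IPs (at least 20 CPM over the IPs, groups not overlapping); without symbols at most 2 identifiers were printed per direction and comparison. Same-lettered libraries of the IPs did not deviate together (correlations 0.0175, -7.43e-06 and 0.0166). Nor did those of WAGO-1 P3G IP and input (0.0185, -0.00035 and -0.0083). Those of CSR-1 IP and CSR-1 input gave 0.293, 0.186 and 0.0353. Across letters, A and B gave -0.233 and -0.234 there, and B and C 0.0701 and 0.101. Letter A thus went together in the CSR-1 strain, and B and C were not told apart. Not all 3 same-letter values were over 0.1, so the full fit did not use letters as pairs. Alternatives were another scaling, DESeq2 1.42.0, no filter, IPs alone, a replicate block and leaving out each library.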

Additional observations from a re-analysis of the deposited data

Results flagged for a closer look

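IP against input went opposite ways in the 2 strains for the 107 genes together. Their summed share of counted reads in the IP was 1.67, 1.64 and 1.62 times that of the input in WAGO-1 P3G replicates A, B and C, with a mean of 1.64, and 0.207, 0.258 and 0.253 times in the CSR-1 replicates, with a mean of 0.240. These ratios set IP against input of the same letter. In the CSR-1 strain IP and input deviated together in letter A (correlation 0.293). Letters B (0.186) and C (0.0353) were not told apart there, since B and C across letters gave 0.0701 and 0.101. In the WAGO-1 P3G strain the letters were not shown to pair libraries (0.0185, -0.00035 and -0.0083). Every WAGO-1 P3G IP also lay above every WAGO-1 P3G input in this share, and every CSR-1 IP below every CSR-1 input. Gene by gene, 73 of the 107 had IP above input in all 3 WAGO-1 P3G replicates and below it in all 3 CSR-1 replicates. Over all features 20.3% did. With shares of all reads the number was 102, beside 24.4% of all features. The 107 are not alone in this: of the 159 genes just above the ratio limit, 125 did on counted reads and 150 on all reads. The difference was not tested, because the inputs of both strains chose the genes.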

How the results depend on the processing

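The choice rule kept 34 genes at a 16-fold loss and 266 at a ratio limit of 0.25. It kept 88 to 145 with CPM on all reads, another pseudocount or a level limit of 20 or 100 CPM, and 103 to 117 without any 1 input library. With CPM on all reads it kept 141, of which 80 are among the 107.

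Between the IPs, where 78 were lower and 8 higher with a median log2 of -0.77, median-of-ratios factors gave 16 higher at -0.48, DESeq2 gave 16 higher at -0.47, and the 6 IP libraries alone gave 4 higher at -1.002, with 87 lower. With 1 library left out and features filtered again, 47 to 73 were lower and 10 to 21 higher, and the median ran from -0.68 to -0.29, while the features tested ran from 8473 to 13013. On the features of the full set, a setting added after seeing the data, 58 to 79 were lower and 8 to 15 higher, and the median ran from -0.80 to -0.45. There, leaving out WAGO-1 P3G input B gave 15 higher at -0.50, and leaving out WAGO-1 P3G IP A, B or C gave -0.52, -0.51 and -0.45. Over all features, 3518 to 6057 were higher and 3755 to 4964 lower without any 1 library, and with no filter on low counts 10598 were higher among 45440 tested. Why these values moved was not tested. Under these settings 0 genes called lower became called higher, and 0 the reverse. The replicate block gave 79 lower and 10 higher (median log2 -0.76).

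The log2 ratio of WBGene00021927, not called in the full fit (0.21, edgeR adjusted p = 0.0521), was called higher in 22 of 30 alternatives, at 0.21 to 0.64. It was -0.022 with the IPs alone and 0.12 to 0.64 with 1 library left out. That of WBGene00008227, with 4 counts over the IPs, ran from -0.28 to 2.12. It was -0.02 without CSR-1 IP A and -0.13 without WAGO-1 P3G IP B, and -0.28 and -0.23 on the features of the full set. Depth limits single genes most in the WAGO-1 P3G inputs.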

Other observations

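Genomic intervals of the table, which were not among the 107, also showed the same input loss. Of 415 intervals of at least 50 CPM in the CSR-1 inputs, 47 met the same limits, which is 11.3%, against 3.52% of gene identifiers at that level. The difference was not tested. Between the IPs 33 of these 47 were called lower in the WAGO-1 P3G IP and 2 higher, at a median log2 of -1.13. That is 70.2% and 4.26% of them, beside 44.6% and 42.3% of all features tested, whose median log2 was -0.09. In the opposite direction, 6 of the 3237 identifiers with at least 50 CPM in the WAGO-1 P3G inputs were at least 8-fold above the CSR-1 inputs.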
